A study of Mus musculus with 16 samples.

Results

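AKT1 KO hearts were compared with control hearts on 8 of the 16 arrays of the series, 4 arrays per group and 1 array per mouse, which were chosen by their sample titles alone. All 13725 genes that passed a filter on dim probes were tested. The AKT1 KO mice were heterozygous for MHC-mercremer and homozygous for AKT1 flox/flox, and the control mice were heterozygous for MHC-mercremer only. Both groups were male C57Bl/6 mice of 3 months that had been given hydroxytamoxifen on 5 days at 500 µg a day, and RNA was taken from the heart apex 21 days after induction. The sample titles read "untreated", whereas the labels of both groups name tamoxifen and no further treatment. MerCreMer is a Cre recombinase that tamoxifen switches on. Its αMHC promoter is active in cardiomyocytes, so that the other cells of the heart keep the floxed gene intact, and the labels give exons 6 and 7 of Akt1 as the floxed ones. Both groups carried MerCreMer and received the drug, whereas only the AKT1 KO mice carried floxed alleles. The remaining 8 arrays, used further below as a second set, came from AKT1+AKT2 DKO mice, which carried both floxed genes in homozygous form, and from AKT2 KO mice, which were homozygous for AKT2 flox/flox. Both of these groups were heterozygous for MHC-mercremer and were treated in the same way.

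AKT1 is a serine/threonine kinase that is switched on downstream of PI3-kinase when insulin, IGF1 and other growth factors bind their receptors. It acts on targets such as the FoxO transcription factors, which it keeps out of the nucleus, GSK3, TSC2 and with it mTORC1. In the heart AKT1 is known for its part in physiological growth of cardiomyocytes, while AKT2 is better known for glucose uptake. RNA was measured here, which does not show the phosphorylation of these targets.

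Levels are given as log2 of the background-subtracted spot intensity relative to the 75th percentile of the array, so that 0 is the level of that percentile and a difference of 1 is a 2-fold change. Between 27498 and 30526 probes per AKT1 KO array lay well above background, against 25292 to 29898 per control array. A probe was kept when at least 1 of the 4 groups had it well above background on each of its 4 arrays, and a gene is represented by its brightest kept probe. With 4 arrays per group, small differences cannot be resolved. The ventricular cardiomyocyte markers were all detected, with a summed level of 5481 to 7580 times the 75th percentile in AKT1 KO hearts and 6167 to 6990 times in control hearts. AKT1 KO replicate 1 stood apart from the other arrays. It scored 38.9 on the first principal component of the 8 arrays, against -6.47 to 6.07 for the other AKT1 KO arrays and -16.9 to -5.32 for the control arrays. The median standard deviation of a gene was 0.162 in AKT1 KO hearts (0.108 without replicate 1) and 0.090 in control hearts (n = 4 each). Each group lay in its own array column on both slides, so that column and group cannot be told apart. In bulk heart RNA, fewer cells of a type and less RNA per cell cannot be told apart either.

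Akt1 mRNA itself was not lower in AKT1 KO hearts on either of its probes. The brightest Akt1 probe read 4.86, 5.43, 5.26 and 5.36 in AKT1 KO hearts, against 5.14, 5.17, 5.09 and 5.14 in control hearts. Replicate 1 was the lowest and the other 3 AKT1 KO arrays were higher than all 4 control arrays. The difference was 0.10 (SE 0.105, limma adjusted p = 0.979), and an exact permutation test over the 70 ways to split the 8 arrays gave a two-sided p of 0.543, where 0.0286 is the smallest possible. The second, dimmer Akt1 probe differed by 0.28 (exact permutation p = 0.0857). With array weights the brightest probe passed the threshold at a difference of 0.21 (adjusted p = 0.0473 in limma, the lowest of its alternatives, which reach 1), and within slide 2 the difference was -0.002. Where these probes lie relative to the floxed exons is not known here, so that their levels do not check the label. Akt2 averaged 4.78 ± 0.178 in AKT1 KO hearts and 4.91 ± 0.062 in control hearts (SD, n = 4 each, exact permutation p = 0.171). The Akt2 values of the groups did not differ beyond the spread between arrays.

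Across all genes, AKT1 KO hearts differed little from control hearts. The median difference was -0.032, 86.5% of the genes lay within 0.25 log2 units of 0, and 96.4% within 0.5. limma, a linear model fitted to all genes and all 16 arrays, called 109 genes (0.794% of those tested, at an adjusted p under 0.05), 57 of them higher (0.415%) and 52 lower (0.379%). All but 1 of the 109 had every AKT1 KO array on 1 side of every control array, as had 9.19% of all genes. The called differences were moderate, with a median size of 0.84 log2 units. Of the 109, 46 reached 2-fold (24 higher, 22 lower), 63 were smaller and 29 were under 1.5-fold. With slide and row on the slide as a block, which makes 4 sets with 1 array of each group, 101 genes were called, 86 of them among the 109. Within slide 1 alone 14 genes were called and within slide 2 alone 4, where 2 arrays per group remain. In all, 49 of the calls (28 higher, 21 lower) were without overlap and held when any 1 of the 16 arrays was left out, and these are called steady here. Without AKT1 KO replicate 1 the count was 114, of which 79 were among the 109. Without control replicates 1 to 4 it was 56, 54, 63 and 64, without AKT1 KO replicate 4 it was 56, and without AKT1+AKT2 DKO replicate 3, which shares the estimate of the spread, it was 291.

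The calls were spread over all levels of expression. The genes were split by mean level into 4 classes of 3431 or 3432 genes. Among the dimmest, 22 genes were called higher and 13 lower, 1.02% of that class. The next class held 14 higher and 12 lower (0.758%), and the one above it 15 higher and 18 lower (0.962%). The brightest class held 6 higher and 9 lower (0.437%). From the dimmest to the brightest class the median difference was 0.016, -0.014, -0.033 and -0.066, so that the brightest genes lay slightly lower in AKT1 KO hearts. This order rested on 1 array and on the scaling. Without AKT1 KO replicate 1 the medians were -0.0053, 0.0064, -0.00078 and -0.0078, and with quantile normalization they were -0.030, -0.024, -0.0095 and -0.0046. At the dim end, 7 genes were well above background on all 4 AKT1 KO arrays and on no control array, and 3 of them were called, Ptprn2, Mybphl and Insyn2a. The AKT1 KO arrays, where these genes were high, were enough for the filter to keep them. Their detection in AKT1 KO hearts is therefore no separate support for their calls. Insyn2a, a synaptic protein, read -2.24, -3.15, -2.72 and -2.33 in AKT1 KO hearts, against -4.60, -6.82, -6.06 and -4.36 in control hearts, at least 2.63-fold higher (limma adjusted p = 0.0173). Control replicates 2 and 3 and AKT1 KO replicates 1 and 4 each ended this call when left out (0.0512 to 0.0758). The call also ended without the filter on dim probes (limma adjusted p = 0.0508). Normexp gave a difference of 0.96 in place of 2.85, below the bound of 2.63-fold. The reverse held for 1 gene, Pirt, which was not called (difference -1.71, limma adjusted p = 0.143) and was singled out after its values were seen.

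**Figure D1:**
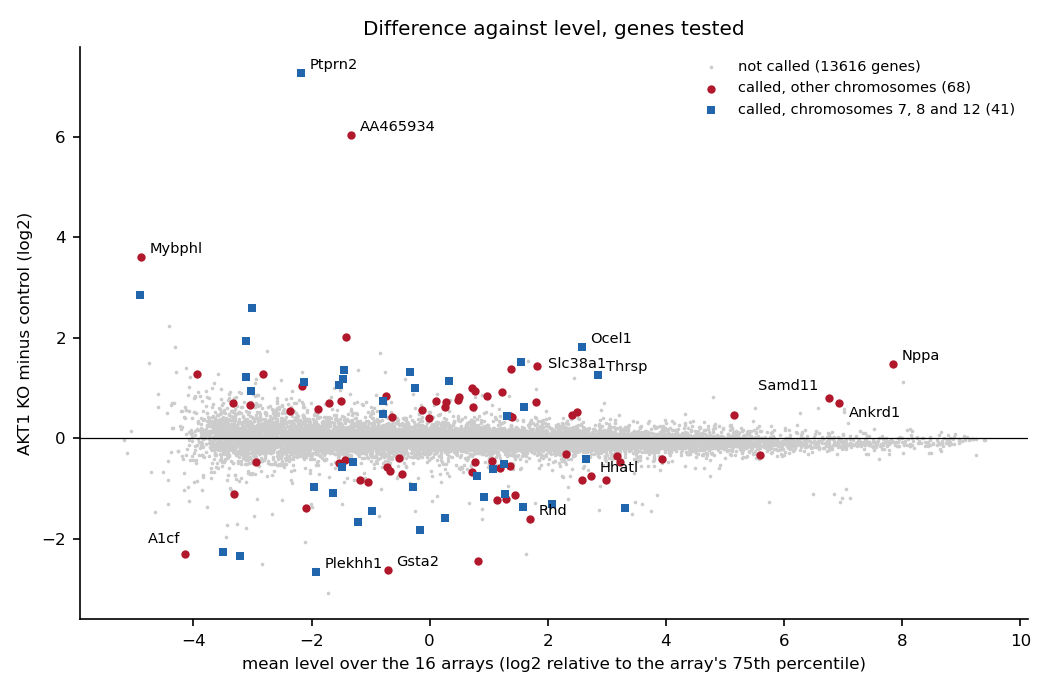
Difference between AKT1 KO and control hearts (log2, vertical axis) against the mean level over the 16 arrays (log2 relative to the 75th percentile of the array, horizontal axis), 1 point per gene. Called genes lie at all levels, and the 2 highest points are Ptprn2 (7.27) and AA465934 (6.04), both dim on the control arrays.

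Akt1 lies on chromosome 12, Akt2 on chromosome 7, and the densest group of calls on chromosome 8. Off these 3 chromosomes limma called 68 of 11438 genes (0.595%), 37 higher and 31 lower. Of these, 26 were steady (16 higher, 10 lower). Slc38a1, a sodium-coupled transporter that brings glutamine into cells, was among the steady rises. It read 2.52, 2.75, 2.42 and 2.67 in AKT1 KO hearts, against 1.06, 1.15, 1.30 and 1.06 in control hearts. The groups did not overlap, and the difference was 1.45 (SE 0.144, limma adjusted p = 0.000169, 2.72-fold). Tfpi, which encodes the inhibitor of the tissue factor pathway of coagulation, read 2.08, 2.19, 2.08 and 2.33 in AKT1 KO hearts, against 1.47, 1.42, 1.41 and 1.44 in control hearts. All 4 AKT1 KO arrays were higher, by 0.73 on average (SE 0.114, limma adjusted p = 0.00552). Samd11, a nuclear protein with a sterile alpha motif, was a called gene of the brightest class. It read 7.38, 7.47, 7.14 and 7.43 in AKT1 KO hearts, against 6.59, 6.53, 6.50 and 6.60 in control hearts, a rise of 0.80 (SE 0.0885, limma adjusted p = 0.00029).

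Further steady rises follow. Mybphl, which binds myosin in atrial and conducting muscle cells, read -1.41, -2.41, -3.84 and -1.59 in AKT1 KO hearts, against -6.36, -5.90, -5.97 and -5.43 in control hearts. It was well above background on all 4 AKT1 KO arrays and on no control array, so that its rise is given as a bound of at least 3.23-fold (limma adjusted p = 0.00183). With normexp background correction the difference was 1.43 in place of 3.60. Such bounds set each control array no lower than its dimmest probe well above background. They hold only for the background subtraction and the probe used here. With normexp the differences of Mybphl, Insyn2a and Ptprn2 all fell below them. Eprn, a long non-coding RNA gene, averaged -0.13 ± 0.366 in AKT1 KO hearts and -2.14 ± 0.228 in control hearts (SD, n = 4 each, limma adjusted p = 0.000925). Tbx1, a T-box factor of pharyngeal and outflow tract development, read -0.69, -0.79, -0.73 and -0.53 in AKT1 KO hearts, against -1.31, -1.37, -1.42 and -1.61 in control hearts (difference 0.74, SE 0.126, limma adjusted p = 0.00983). Ybx2, an RNA-binding protein of germ cells, rose by 0.73 (SE 0.108), and Mdga1, a GPI-anchored adhesion protein, by 0.63 (SE 0.0989), with limma adjusted p of 0.00397 and 0.00564. Mdga1 was not called with the mean of its probes (difference 0.63, adjusted p = 0.104 in limma, and 0.000127 to 0.894 across its alternatives). Slitrk4, a neuronal transmembrane protein, rose by 1.28 (SE 0.216, limma adjusted p = 0.0097) and by 0.72 with normexp, and it was well above background on 3 of the 4 control arrays. St6galnac2, a sialyltransferase, read 1.87, 1.51, 1.25 and 1.92 in AKT1 KO hearts, against 0.73, 0.80, 0.84 and 0.83 in control hearts. Its brightest probe rose by 0.84 (SE 0.13, limma adjusted p = 0.00552), while its other probe differed by -0.05.

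The largest difference off those chromosomes was that of AA465934, a long non-coding RNA gene on chromosome 11 (83291699 to 83294637, GRCm38.p6), which was singled out after its values were seen. It read 2.72, 3.96, 3.06 and 3.80 in AKT1 KO hearts, against -2.57, -2.52, -2.55 and -2.99 in control hearts. The lowest AKT1 KO array lay more than 5 log2 units above the highest control array, and the difference was 6.04 (SE 0.217, limma adjusted p = 6.81e-10). It was well above background on 3 of the 4 control arrays. In the second set of arrays, AKT1+AKT2 DKO minus AKT2 KO, the difference of AA465934 was -0.79 (limma adjusted p = 0.0090).

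Among the genes that fell off those chromosomes, glutathione transferases of the alpha class formed a group of neighbours on chromosome 9. These enzymes join glutathione to reactive lipid products and drugs. Gsta2 (78331018 to 78347192) read -3.37, -2.37, -1.93 and -3.03 in AKT1 KO hearts, against 0.04, -0.11, -0.11 and -0.07 in control hearts, a fall of 2.61 (SE 0.272, limma adjusted p = 0.00022, 6.11-fold). Gm10639 (78289928 to 78305525), a protein-coding gene between Gsta4 and Gsta2 that was singled out after its values were seen, read -1.70, -0.86, -0.25 and -1.46 in AKT1 KO hearts, against 1.48, 1.34, 1.24 and 1.39 in control hearts. Its difference was -2.43 (limma adjusted p = 0.000428), and its AKT1 KO arrays came in the same order as those of Gsta2, with replicate 1 lowest and replicate 3 highest. Gsta4 (78191966 to 78209349) read 0.89, 1.32, 1.34 and 1.27 in AKT1 KO hearts, against 1.76, 1.82, 1.69 and 1.73 in control hearts, a fall of 0.55 (SE 0.108, limma adjusted p = 0.0273). These were all 3 of the genes tested in that stretch. The probe sequences of such related genes were not used here, so that cross-hybridisation between them was not tested. Each control array and AKT1 KO replicate 4 ended the Gsta4 call when left out (limma adjusted p = 0.0709 to 0.115). It also ended without the filter on dim probes and with the replicate number as a block (0.0909 and 0.0711, and 0.000658 to 0.890 across its alternatives).

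The other steady falls touched genes of several roles. A1cf, an RNA-binding cofactor of APOBEC1 in mRNA editing, read -4.35, -4.06, -4.45 and -4.87 in AKT1 KO hearts, against -1.72, -1.94, -2.39 and -2.51 in control hearts. It was well above background on 1 AKT1 KO array and on all 4 control arrays, and it fell by 2.29 (SE 0.352, limma adjusted p = 0.00525) or by 1.07 with normexp. Rhd, a membrane protein of red blood cells, read -0.65, 0.92, 0.63 and 0.34 in AKT1 KO hearts, against 1.88, 1.96, 1.89 and 1.96 in control hearts (fall of 1.61, SE 0.248, limma adjusted p = 0.00525). AKT1 KO replicate 1 was the lowest and all 4 lay below the control arrays. Adig, a regulator of fat cell differentiation, read -3.10, -2.03, -2.38 and -2.28 in AKT1 KO hearts, against -0.97, -1.06, -1.33 and -0.86 in control hearts (fall of 1.39, SE 0.191, limma adjusted p = 0.00216). Hhatl, a membrane protein of the sarcoplasmic reticulum in striated muscle, read 2.54, 3.02, 3.04 and 3.02 in AKT1 KO hearts, against 3.75, 3.73, 3.51 and 3.64 in control hearts (fall of 0.75, SE 0.125, limma adjusted p = 0.0088). Ttc12, which takes part in the assembly of ciliary dynein arms, fell by 0.83 on its brightest and differed by -0.80 on its other probe (limma adjusted p = 0.000414 for the brightest). Anxa4, a calcium-dependent membrane-binding annexin, fell by 0.67 (SE 0.0928, limma adjusted p = 0.00229). Mtr, the cobalamin-dependent methionine synthase, averaged 0.70 ± 0.368 in AKT1 KO hearts and 1.83 ± 0.127 in control hearts (SD, n = 4 each, limma adjusted p = 0.00649). The long non-coding gene Gm10336, named after its values were seen, lies within Mtr and fell by 1.22 (limma adjusted p = 0.00397), and without knowledge of the strands the signals of the overlapping pair cannot be told apart.

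**Figure D2:**
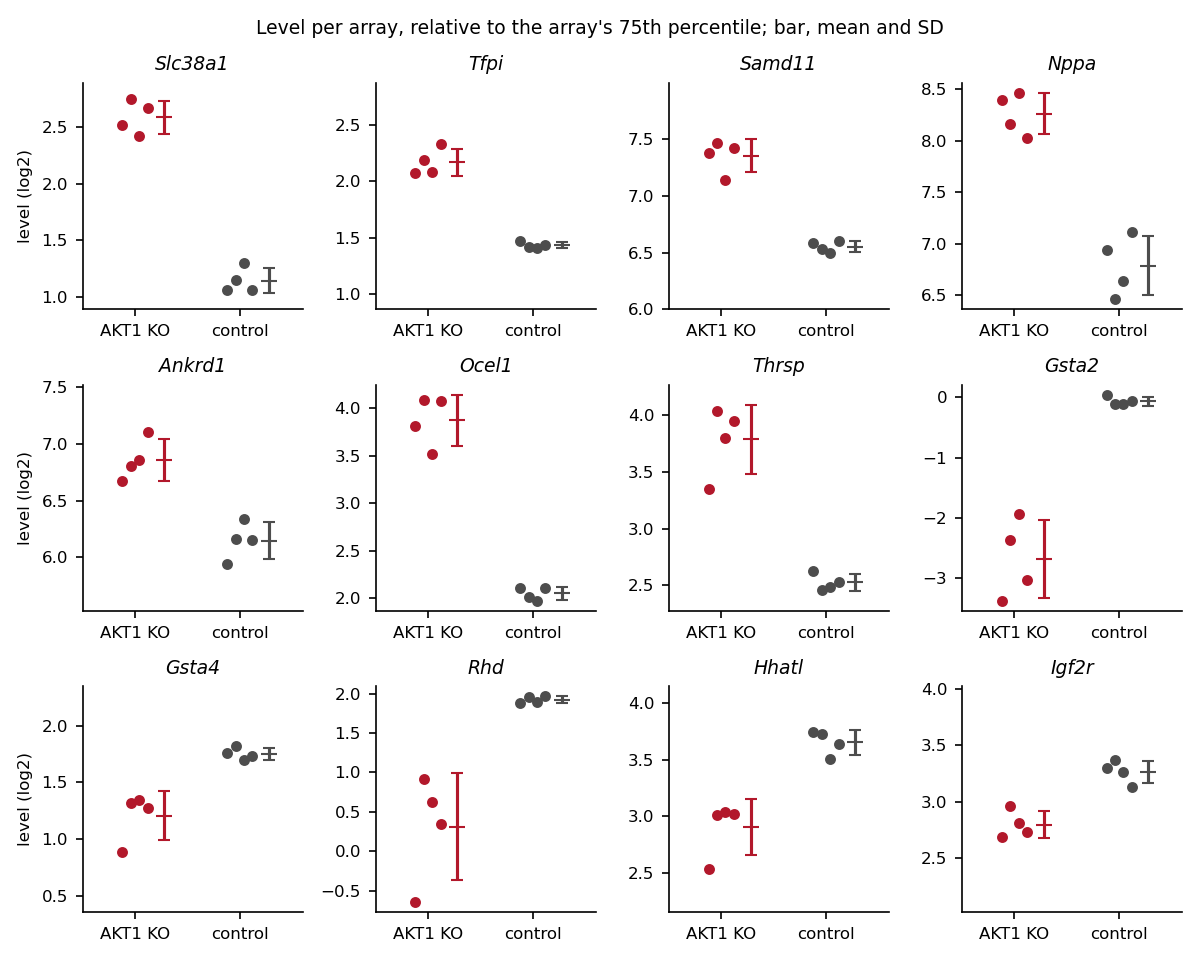
Level of 12 called genes on each array (log2 relative to the 75th percentile of the array), with AKT1 KO hearts in red at the left and control hearts in grey at the right of each panel, and bars for the mean and SD (n = 4 each). In all 12 panels the 4 AKT1 KO arrays lie on 1 side of the 4 control arrays. For Gsta2, Gsta4, Rhd, Hhatl and Igf2r AKT1 KO replicate 1 is the lowest point.

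Chromosomes 7, 8 and 12 together held the other 41 calls. Chromosome 8 carried 23 calls among 728 genes tested (3.16%), chromosome 7 carried 13 of 1093 (1.19%) and chromosome 12 carried 5 of 466 (1.07%). Elsewhere the highest share was that of chromosome 19, with 7 of 490 genes (1.43%). On chromosome 8, Ocel1, a protein with an occludin/ELL domain, read 3.81, 4.09, 3.52 and 4.08 in AKT1 KO hearts, against 2.10, 2.01, 1.97 and 2.11 in control hearts. It rose by 1.82 (SE 0.164, limma adjusted p = 7.34e-05), and its second probe by 1.93. Cnot7, a catalytic subunit of the CCR4-NOT deadenylase, rose by 1.36 (SE 0.161, limma adjusted p = 0.000515), and Calr3, a calreticulin of the testis, by 1.18 (SE 0.184, limma adjusted p = 0.00564). Zfp963, a zinc finger gene, rose by 1.94 (limma adjusted p = 0.00784) or by 1.04 with normexp, and was well above background on 2 of the 4 control arrays. Cib3, a calcium-binding protein, fell by 1.66 (SE 0.241, limma adjusted p = 0.00364), Trmt9b, a putative tRNA methyltransferase, by 0.96 (0.00525), and Pcm1, a protein of centriolar satellites, by 0.74 (0.00784).

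On chromosome 7, Thrsp, a nuclear protein tied to fat synthesis in liver and fat cells, read 3.35, 4.04, 3.80 and 3.95 in AKT1 KO hearts, against 2.62, 2.46, 2.48 and 2.53 in control hearts. It rose by 1.26 (SE 0.199, limma adjusted p = 0.00564) and by 1.19 on its second probe. Sbk3, a kinase of the SH3-binding family, fell by 1.82 (SE 0.245, limma adjusted p = 0.00183), Kcnj14, an inward-rectifier potassium channel, by 1.59 (0.0088), Aldh16a1, an aldehyde dehydrogenase family member, by 1.29 (0.00031) and Nlrp10, a member of the NOD-like receptor family, by 1.17 (0.00417). On chromosome 12, Ptprn2, a phosphatase-like protein of dense-core vesicles, read 1.55, 1.90, 1.89 and 1.90 in AKT1 KO hearts, against -5.55, -6.65, -5.47 and -4.18 in control hearts. No control array was well above background, and with this probe and background subtraction the rise is at least 56.3-fold (limma adjusted p = 2.77e-08). Normexp gave a difference of 4.54 in place of 7.27 and the mean of its probes 4.15, both below that bound. Plekhh1, a pleckstrin homology domain protein, fell by 2.65 (SE 0.354, limma adjusted p = 0.00183) and was well above background on 3 of the 4 AKT1 KO arrays. Zfp386, a zinc finger gene, read 1.09, 0.85, 0.55 and 0.68 in AKT1 KO hearts, against 1.91, 1.86, 1.96 and 1.91 in control hearts, a fall of 1.11 (SE 0.118, limma adjusted p = 0.000233).

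Some called genes lay near each other. Linking called genes less than 2 Mb apart gave 13 runs that held 45 of the 109 genes (41.3%), and 20.9% of the genes that were not called lay as near to a called gene. The runs spanned 2 to 95 genes tested, so that many members were not next to each other, and 6 of these runs, with 16 genes, were off chromosomes 7, 8 and 12. The members of these 6 runs were named after their values were seen. Beside the glutathione transferases and the pair of Mtr and Gm10336, a run on chromosome 6 joined Ints13, Fgfr1op2 and Ppfibp1 among 7 genes tested over 0.482 Mb. Ppfibp1, a liprin of cell adhesions, read 2.79, 2.11, 2.04 and 2.10 in AKT1 KO hearts, against 0.79, 0.92, 0.91 and 0.91 in control hearts, a rise of 1.38 (SE 0.137, limma adjusted p = 0.000169). Fgfr1op2, a component of STRIPAK phosphatase complexes, rose by 0.997 (SE 0.109, limma adjusted p = 0.00029), and Ints13, an Integrator subunit, by 0.63 (SE 0.135, limma adjusted p = 0.0434). On all 3 genes AKT1 KO replicate 1 was the highest array. A run on chromosome 19 held genes that moved in opposite directions. There Lipa, the lysosomal acid lipase, Ifit2, an interferon-induced gene, and Ankrd1, an ankyrin repeat protein that binds titin and responds to stretch, rose by 0.93, 0.84 and 0.72, while Htr7, a serotonin receptor, fell by 1.11 (limma adjusted p = 0.0393, 0.0242, 0.0175 and 0.0141). On chromosome 4 the fall of Rhd stood beside a rise of 0.56 of Myom3, an M-band protein (limma adjusted p = 0.0379), and on chromosome 5 Pomp, a proteasome assembly factor, and Slc46a3, a lysosomal transporter, fell by 0.33 and 0.46 (limma adjusted p = 0.0271 and 0.0468).

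Of these neighbours only Rhd, Mtr, Gm10336, Gsta2, Gm10639, Fgfr1op2 and Ppfibp1 were steady. Leaving out 1 control array, whichever it was, ended the calls of Ints13, Lipa, Myom3, Pomp and Slc46a3. AKT1 KO replicate 4 also ended all 5, replicate 2 those of Ints13, Lipa, Pomp and Slc46a3, replicate 1 those of Myom3 and Slc46a3, and replicate 3 those of Lipa, Myom3 and Slc46a3. Further calls ended without an array of the other groups, which share the estimate of the spread. For Ints13 these were AKT2 KO replicates 1, 2 and 3 and DKO replicates 1, 2 and 4, for Lipa any AKT2 KO array, and for Slc46a3 any AKT2 KO array and DKO replicates 1 and 2. The limma adjusted p without an array then ran from 0.0503 to 0.149 for Ints13, 0.0506 to 0.122 for Lipa, 0.0759 to 0.138 for Myom3, 0.0514 to 0.108 for Pomp and 0.0514 to 0.178 for Slc46a3. With slide and row as a block the calls of Ints13, Myom3, Pomp, Slc46a3 and Ifit2 ended too (limma adjusted p = 0.0910, 0.0800, 0.0760, 0.0517 and 0.0505). Without the filter on dim probes the calls of Ints13, Lipa, Myom3, Pomp and Slc46a3 ended as well (limma adjusted p = 0.1137 to 0.1437). Control replicates 2 and 4 and AKT1 KO replicate 2 each ended the call of Htr7 (0.0553 to 0.0635), as did quantile normalization and the authors' values (0.0577 and 0.0586, and 0.00321 to 0.962 across its alternatives). Htr7 was well above background on 3 of the 4 AKT1 KO arrays, and with normexp its difference was -0.58.

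The promoters of a pair of genes are shown because A1cf and Ocel1 were the steady genes named above whose windows held the FoxO core, which reads TGTTTAC on 1 strand and GTAAACA on the other. FoxO factors bind such sites and are held out of the nucleus by AKT. The windows are RefSeq promoters of GRCm38.p6, and the 250 bases before each start site are printed 5′ to 3′ on the plus strand of both genes, with the FoxO core in capitals, from chr19:31868563-31868812 for A1cf and chr8:71371048-71371297 for Ocel1.
A1cf: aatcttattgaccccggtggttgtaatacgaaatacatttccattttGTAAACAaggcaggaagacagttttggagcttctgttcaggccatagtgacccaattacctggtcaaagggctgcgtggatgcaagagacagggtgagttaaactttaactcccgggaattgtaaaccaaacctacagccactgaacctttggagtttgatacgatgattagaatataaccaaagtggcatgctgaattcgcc
Ocel1: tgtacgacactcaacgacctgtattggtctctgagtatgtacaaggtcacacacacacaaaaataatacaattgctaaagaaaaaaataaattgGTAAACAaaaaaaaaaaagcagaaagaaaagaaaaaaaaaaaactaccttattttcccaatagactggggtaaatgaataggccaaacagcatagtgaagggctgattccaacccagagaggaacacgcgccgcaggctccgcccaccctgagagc
A1cf fell and Ocel1 rose, so that the same letters stood before genes that moved in opposite directions. Over windows of 250 bases before to 50 after the start, 3 of the 48 called-higher genes with a window held the core (6.25%), as did 3 of the 40 called-lower genes (7.5%), 3.24% of the genes tested and 4.05% of all genes with a window. A second motif, TGACNNNGC on either strand, the core of the antioxidant response element found before many glutathione transferase genes, was in 11 of the 48 called-higher (22.9%) and 6 of the 40 called-lower genes (15%), against 16.6% of the genes tested and 13.99% of all genes with a window. Such a match is a description of the letters and not a binding site.

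Where a gene had several probes, they mostly moved in the same direction when the gene was called, though not always by a like amount. Of the 4558 genes with more than 1 kept probe, 65.0% had all probes on the same side of 0. Among the 109 called genes, 77 had a single kept probe and 32 had more, and in 28 of these 32 all probes had the same sign. In 13 of the 32 another probe was called as well. Slc38a1 differed by 1.45 on its brightest probe and by 1.51 and 2.06 on the other 2 probes. The 3 probes of Tfpi gave 0.73, 0.61 and 0.73. Nppa gave 1.47 and 1.71, Rhd -1.61 and -1.37, Anxa4 -0.67 and -0.56, and Trmt9b -0.96 and -0.97. In 10 of the 28 genes whose probes had the same sign, at least 1 other probe moved by less than 0.5 times as much as the brightest. Ptprn2 differed by 7.27 on its brightest and by 1.03 on its second probe, Ppfibp1 by 1.38 and 0.11, Cnot7 by 1.36 and 0.40, and Kcnj14 by -1.59 and -0.48. The 3 probes of Pcm1 gave -0.74, -0.20 and -0.15.

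In 4 called genes the probes pointed in opposite directions. Tti2, a cofactor that stabilises kinases of the mTOR family, read 1.06, 0.02, 1.11 and 0.07 on its brightest probe in AKT1 KO hearts, against 1.96, 2.00, 1.85 and 1.91 in control hearts, a difference of -1.37 (limma adjusted p = 0.00417). Its other probe differed by 1.001 and was itself called. The 2 AKT1 KO pairs of that gene, replicates 1 and 3 and replicates 2 and 4, lay about 1 log2 unit apart. The pairs of values were 0.997 and -0.30 for Fgfr1op2, 0.84 and -0.05 for St6galnac2, and -0.50 and 0.32 for Gins4, a replication factor (limma adjusted p = 0.0344 for its brightest probe). With the mean of the probes in place of the brightest, the calls of Tti2, St6galnac2, Gins4, Kcnj14, Pcm1 and Ints13 ended, and the differences of Tti2, St6galnac2, Gins4, Kcnj14, Pcm1, Ppfibp1, Cnot7 and Fgfr1op2 were -0.18, 0.39, -0.09, -1.03, -0.37, 0.74, 0.88 and 0.35. The Gins4 call also ended when 1 array was left out, which held for each control array, for AKT1 KO replicates 1, 2 and 4 and for AKT2 KO replicates 1, 2 and 3 (0.0503 to 0.127). It ended without the filter on dim probes as well (limma adjusted p = 0.1137). Which transcripts or exons these probes cover is not known here, and a change of transcript form was not tested.

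**Figure D3:**
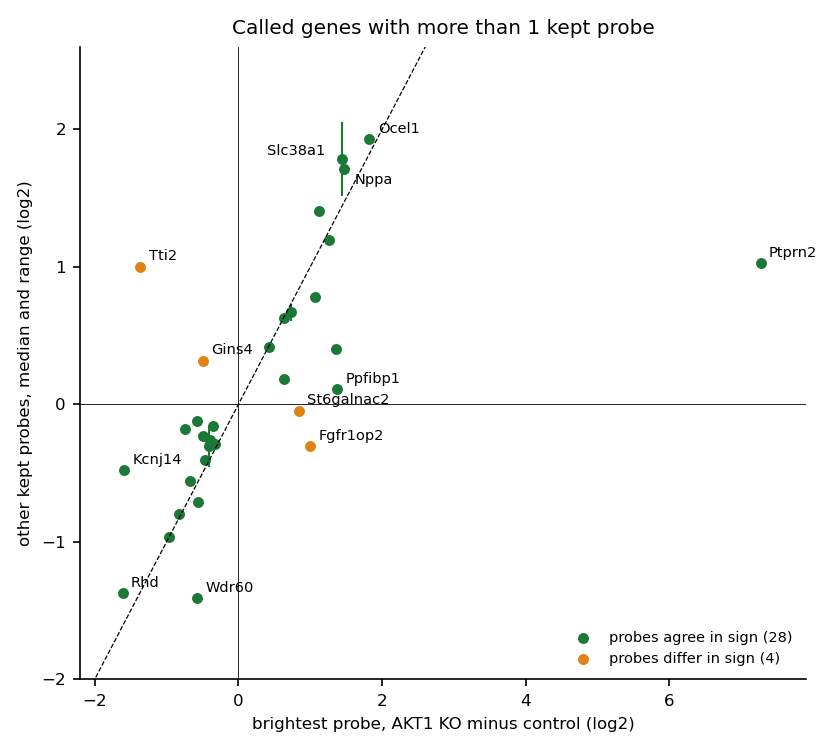
Difference between AKT1 KO and control hearts (log2) on the brightest probe of a called gene (horizontal axis) and on its other kept probes (vertical axis, median with a line for the range over several), for the 32 called genes with more than 1 kept probe. The 28 genes whose probes agree in sign are green, the 4 that differ are orange, and the dashed line marks equal differences. Ptprn2 lies far below that line at 7.27 and 1.03.

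Gene lists were laid over these results, 31 for pathways and 12 for cell types, with 1041 of their 1152 genes tested. Of the 1041 genes, 13 were called (1.25%, against 0.794% of all genes), and 32 of the 43 lists held no called gene. The lists were chosen with earlier results of these data known, so that these shares are no independent comparison. Of all genes tested, 7.41% reached an unadjusted p below 0.05. In the list of AKT pathway components limma called none of the 31 tested, and 2 had an unadjusted p under 0.05. Of the 31, 25 lay below 0 and 6 above, and their median was -0.051, against -0.032 over all genes. The AKT1 KO arrays were lower without overlap in 4 of the 31, as in 6.29% of all genes. Those 2 were Gsk3a, a kinase that AKT inhibits (3.96 ± 0.158 in AKT1 KO hearts and 4.16 ± 0.054 in control hearts, SD, n = 4 each, limma adjusted p = 0.480), and Mlst8, a subunit of both mTOR complexes (difference -0.17, limma adjusted p = 0.673). limma called none of the 29 FoxO target genes and atrogenes either, with 2 at an unadjusted p under 0.05 (median -0.104, 10 above 0 and 19 below). Cat, the catalase gene, had a difference of -0.38 (limma adjusted p = 0.334). Among the 24 genes from the insulin and IGF1 receptors to PI3-kinase 1 was called, lower (0.379% of all genes were), and 6 had an unadjusted p under 0.05. Without overlap 4 of the 24 were higher and 3 lower, as were 2.9% and 6.29% of all genes. Igf2r, the receptor that clears IGF2 and sorts lysosomal enzymes, read 2.69, 2.96, 2.81 and 2.74 in AKT1 KO hearts, against 3.29, 3.37, 3.26 and 3.13 in control hearts. It fell by 0.46 (SE 0.0804, limma adjusted p = 0.011), and control replicates 1 and 2 and AKT1 KO replicate 4 each ended its call when left out (0.0507 to 0.0587). The median of that list was 0.027.

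Of the 30 fetal and stress genes of cardiomyocytes, 3 were called, all higher (0.415% of all genes were), and 8 had an unadjusted p under 0.05. The median of the list was 0.043. In 6 of the 30 the 4 AKT1 KO arrays were higher without overlap, as in 2.9% of all genes. Beside Mybphl these were Nppa and Ankrd1. Nppa encodes atrial natriuretic peptide, which the ventricle makes again under load. It read 8.39, 8.16, 8.46 and 8.03 in AKT1 KO hearts, against 6.94, 6.46, 6.64 and 7.11 in control hearts, a rise of 1.47 (SE 0.27, limma adjusted p = 0.0168, 2.78-fold). Ankrd1 read 6.67, 6.81, 6.86 and 7.11 in AKT1 KO hearts, against 5.94, 6.16, 6.34 and 6.15 in control hearts. Neither gene overlapped between the groups. The Nppa call ended when control replicate 2 or 3 was left out (0.0646 to 0.0745) and without the filter on dim probes (0.0508, and 0.00342 to 1 across its alternatives). Control replicates 1, 2 and 4 and AKT1 KO replicate 4 each ended the call of Ankrd1 (0.0595 to 0.0762). That call also ended without the filter on dim probes (limma adjusted p = 0.0587). Other members did not pass. Ccn2, a matricellular protein, averaged 4.08 ± 0.378 in AKT1 KO hearts and 3.24 ± 0.044 in control hearts (SD, n = 4 each, limma adjusted p = 0.0520). Nppb, the brain natriuretic peptide gene, and Myh7, the slow myosin heavy chain, both singled out after their values were seen, had differences of 0.53 and 1.13 (limma adjusted p = 0.296 and 0.379). Gdf15, a secreted stress cytokine, had a difference of 0.77 (limma adjusted p = 0.667).

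The contractile and electrical lists held 2 further calls, and 0.794% of all genes were called. In the list of 39 sarcomere and Z-disc genes (median -0.051) Pdlim3, which links alpha-actinin at the Z-disc, read 1.93, 2.95, 1.99 and 2.81 in AKT1 KO hearts, against 0.97, 0.76, 0.92 and 0.99 in control hearts. It rose by 1.51 (SE 0.314, limma adjusted p = 0.0379), with replicates 2 and 4 about 1 log2 unit above replicates 1 and 3. Its call ended when 1 array was left out, which held for each control and each AKT2 KO array and for AKT1 KO replicates 2 and 4 (0.05001 to 0.138). It also ended without the filter on dim probes and with the replicate number as a block (0.105 and 0.0783, and 9.46e-06 to 1 across its alternatives). In the list of 33 ion channel genes (median -0.050) Kcnj14 was the 1 called. limma called none of the 31 calcium handling genes (median -0.067, 2 at an unadjusted p under 0.05) and none of the 28 adrenergic signalling genes (median -0.064, 3 at an unadjusted p under 0.05). Casq1, the skeletal isoform of calsequestrin, had a difference of -0.65 (limma adjusted p = 0.504), and Adra1b, an alpha-1 adrenergic receptor, one of -0.59 (limma adjusted p = 0.545).

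limma called no gene in the lists of energy metabolism, whose medians lay below 0. At an unadjusted p under 0.05 the lists of fatty acid oxidation (38 genes), oxidative phosphorylation (58), the tricarboxylic acid cycle (29) and ribosomal proteins (45) held 8, 2, 2 and 1 genes, against 7.41% of all genes. For the 38 genes of fatty acid uptake and oxidation the median was -0.211, and 36 of the 38 had a negative difference. In 11 of the 38 the 4 AKT1 KO arrays were lower without overlap, as in 6.29% of all genes. The median of that list per array was -0.493, -0.110, -0.189 and -0.070 relative to the control mean in AKT1 KO hearts, against 0.064, 0.017, -0.088 and -0.004 in control hearts. Replicate 1 was by far the lowest, and replicate 4 lay above control replicate 3, so that the groups overlapped in the median of the list. Acadvl, the first enzyme of mitochondrial beta-oxidation of long chains, averaged 7.62 ± 0.233 in AKT1 KO hearts and 8.03 ± 0.112 in control hearts (SD, n = 4 each, limma adjusted p = 0.177). Cpt1b, which brings long-chain fatty acids into mitochondria, averaged 4.68 ± 0.189 in AKT1 KO hearts and 5.02 ± 0.142 in control hearts (SD, n = 4 each, limma adjusted p = 0.218). The medians of the 58 oxidative phosphorylation genes (-0.101), the 29 genes of the tricarboxylic acid cycle (-0.118) and the 45 cytosolic ribosomal proteins (-0.110) behaved alike. AKT1 KO replicate 1 stood at -0.330, -0.346 and -0.345 in these 3 lists, while the other 3 AKT1 KO arrays lay between -0.093 and 0.054. Without that array the medians of fatty acid oxidation, oxidative phosphorylation, the tricarboxylic acid cycle and ribosomal proteins were -0.118, -0.021, -0.012 and -0.036, and with quantile normalization they were -0.138, -0.029, -0.047 and -0.024. Over all genes the median of that array was -0.140. Whether the state of that heart or of its RNA moved these lists was not tested. Suclg1, a subunit of succinyl-CoA ligase, had a difference of -0.41 (limma adjusted p = 0.144), and the PPAR, ERR and PGC-1 regulators, with a median of -0.083 over 21 genes, held no call.

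Immediate early genes, which growth factors and handling switch on within minutes, were 1 of 2 lists whose 4 AKT1 KO arrays all lay below the 4 control arrays. Their median was -0.278 over 31 genes. Per array it was -0.407, -0.304, -0.122 and -0.252 in AKT1 KO hearts, against -0.063, 0.083, 0.004 and -0.056 in control hearts. The other list was that of 25 angiogenic growth factors and receptors, with a smaller median of -0.086 and no call (1 at an unadjusted p under 0.05). Of the 31 immediate early genes, 11 were lower without overlap (6.29% of all genes were), and 1 was called lower (0.379% of all genes were). This was Egr1, a zinc finger transcription factor. It read 0.43, 0.32, 0.25 and 0.27 in AKT1 KO hearts, against 1.18, 2.17, 1.31 and 1.39 in control hearts, a fall of 1.20 (SE 0.259, limma adjusted p = 0.0468). That call ended when 1 array was left out, which held for all 8 AKT1 KO and control arrays, for AKT2 KO replicate 3 and for DKO replicates 1, 2 and 4 (0.0562 to 0.164). It also ended under quantile normalization, in the authors' values, with the mean of the probes and with slide or replicate number as a block (0.05001 to 0.0575, and 0.00724 to 0.728 across its alternatives), and without the filter on dim probes (0.127). Fos, Dusp1, Ier2 and Junb, singled out after their values were seen, had differences of -1.65, -0.62, -0.52 and -0.51 and did not pass (limma adjusted p = 0.231, 0.0514, 0.0698 and 0.117).

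The stress and inflammation lists held at most 2 calls each. Gsta2 and Gsta4 were the 2 called of 37 glutathione and NRF2 genes (0.794% of all genes were called). In that list 7 genes had an unadjusted p under 0.05, 8 were lower without overlap (6.29% of all genes were), and the median was -0.115 (-0.036 without AKT1 KO replicate 1). Ifit2 was the 1 called of 36 interferon response genes (median 0.064). It read -0.61, -0.80, -0.55 and -0.59 in AKT1 KO hearts, against -1.58, -1.46, -1.23 and -1.66 in control hearts. Control replicates 1, 2 and 4 and AKT1 KO replicates 1, 3 and 4 each ended its call when left out (0.0576 to 0.0926). The Ifit2 call also ended without the filter on dim probes and with the replicate number as a block (limma adjusted p = 0.07455 and 0.06147). The median of the interferon list was 0.452 on AKT1 KO replicate 3 and -0.075 to -0.021 on the other AKT1 KO arrays, against -0.180 to 0.133 on the control arrays. Slc38a1 was the 1 called of 22 amino acid carriers (median 0.027). None of 39 matrix and fibrosis genes (median -0.011), 26 chemokines and cytokines (0.012), 33 genes of endoplasmic reticulum stress and ATF4 (0.021), 28 autophagy and lysosome genes (-0.027), 18 BCL2 family genes (-0.035), 22 cell cycle genes (0.022) or 28 genes of sterol and fatty acid synthesis (-0.00090) was called. At an unadjusted p under 0.05 these 7 lists held 1, 1, 1, 0, 1, 2 and 1 genes in limma, and over all genes 7.41% were under that limit. The same held for 36 genes of glucose use (median -0.064), 22 of branched-chain amino acids and ketones (-0.080), 26 of mitochondrial dynamics (-0.078), 31 translation factors (-0.052), 25 heat shock proteins and crystallins (-0.105) and 20 clock genes (-0.024), with no call and with 2, 4, 3, 1, 2 and 0 genes under that limit. Bcl2, the founding inhibitor of apoptosis, averaged 0.84 ± 0.109 in AKT1 KO hearts and 0.28 ± 0.060 in control hearts (SD, n = 4 each) with no overlap, but did not pass (limma adjusted p = 0.564).

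**Figure D4:**
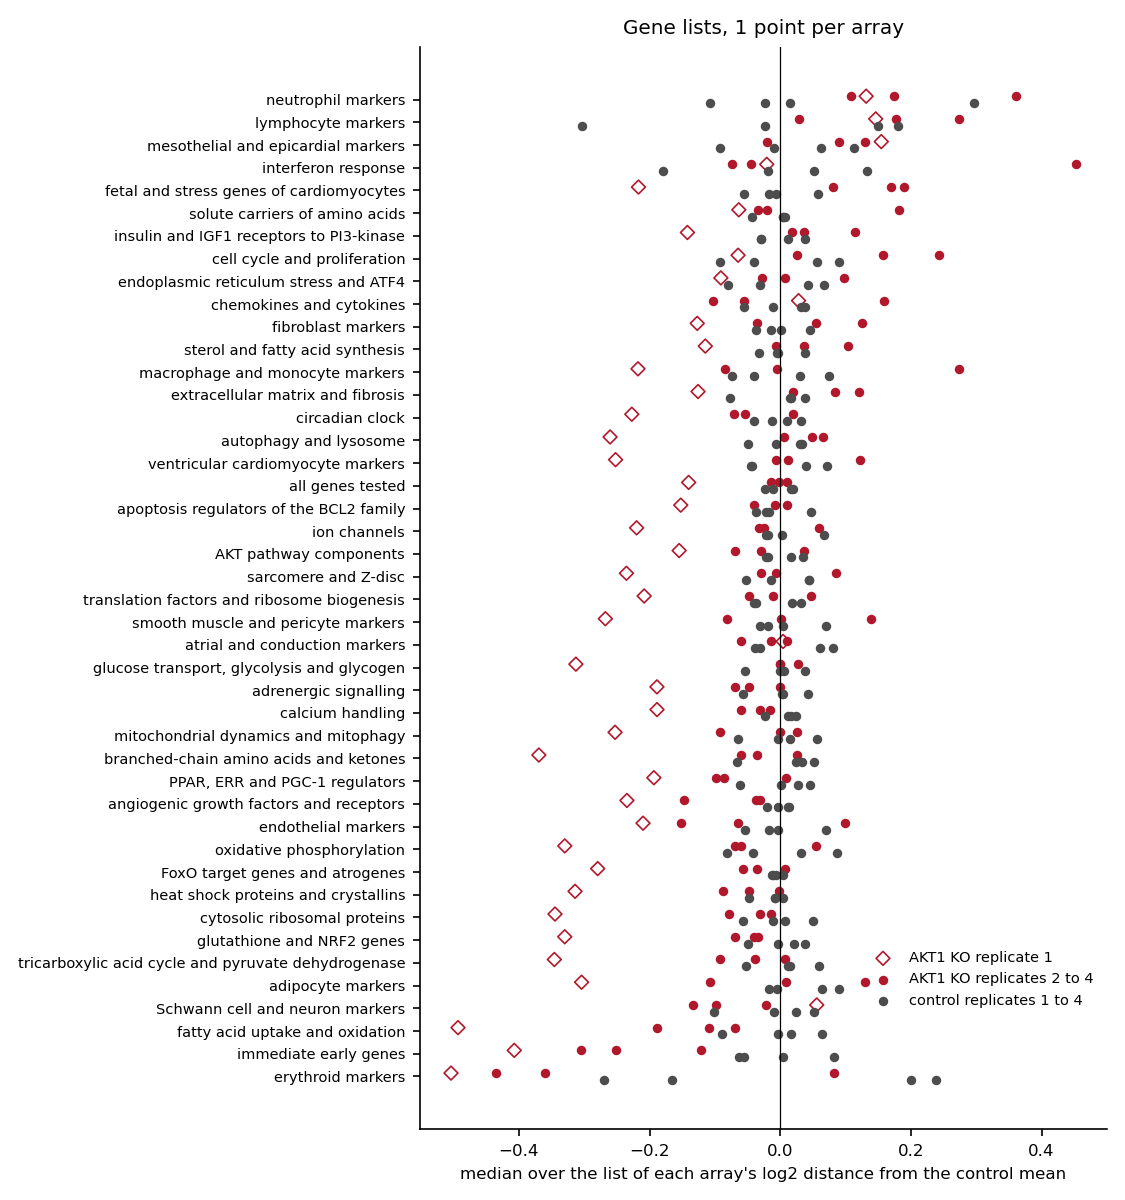
Median over each gene list of the distance of an array from the control mean (log2, horizontal axis), 1 point per array, for 43 lists and all genes tested. Open diamonds are AKT1 KO replicate 1, red points the other AKT1 KO arrays and grey points the control arrays. The diamond is the leftmost point in 35 of the 43 lists. All 4 AKT1 KO arrays lie left of all 4 control arrays in 2 lists, immediate early genes and angiogenic growth factors and receptors.

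Markers of other cell types were set beside these genes. Over all genes 0.415% were called higher and 0.379% lower. Mybphl and Nppa were the 2 called of 17 atrial and conduction markers tested. The summed level of that list was 435 to 567 times the 75th percentile in AKT1 KO hearts and 299 to 371 times in control hearts. Nppa alone made up 261 to 352 in AKT1 KO hearts and 88.0 to 138 in control hearts, and the other 16 genes summed to 140 to 214 in AKT1 KO hearts and 211 to 233 in control hearts. Over the list the median difference was -0.060, and Sln, Bmp10 and Isl1 either did not pass the filter or had no matched probe. Rhd was the 1 called of 12 erythroid markers, and the other 11 were all below 0 without passing. Their summed level was 602 to 908 in AKT1 KO hearts and 718 to 1012 in control hearts, with a median difference of -0.311. Adig was the 1 called of 11 adipocyte markers (5 of the others above 0 and 5 below). Their summed level was 128 to 160.0 in AKT1 KO hearts and 159.6 to 177 in control hearts. Adipoq, Plin1 and Retn, which define fat cells, either did not pass the filter or had no matched probe. The part of atrial tissue, blood or fat in these 4 genes was not tested. limma called none of 20 ventricular cardiomyocyte markers (median -0.030) and none of 20 endothelial, 20 fibroblast, 16 smooth muscle and pericyte, 24 macrophage and monocyte, 7 neutrophil, 10 lymphocyte, 7 mesothelial and 12 Schwann cell and neuron markers. The medians of these last 8 lists were -0.090, 0.0090, -0.059, -0.0085, 0.209, 0.171, 0.087 and -0.140, and at an unadjusted p under 0.05 they held 0, 1, 0, 1, 0, 0, 1 and 0 genes, with 0 among the ventricular markers. For neutrophils the summed level was 52.6 to 111 in AKT1 KO hearts and 48.5 to 60.2 in control hearts.

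The second set of arrays asked whether the same genes differed where Akt1 was targeted on top of Akt2. AKT1+AKT2 DKO minus AKT2 KO shares no array with AKT1 KO minus control, though both enter 1 fit and share the estimate of the spread. Akt2 itself was lower in AKT2 KO hearts (2.54) than in control hearts (4.91), by 2.37 (limma adjusted p = 1.39e-09). The contrast of DKO with AKT2 KO hearts called 42.1% of all genes (23.5% higher, 18.6% lower). Of the 109 genes, 66 were called there, 45 in the same direction and 21 in the opposite one, and regardless of calls 60 of the 109 had the same sign. Of the 49 steady genes, 20 were called in the same direction and 10 in the opposite one. Without AKT1 KO replicate 1 the count called in the same direction was 39. It was 23, 21, 25 and 23 without control replicates 1 to 4, 22 without AKT1 KO replicate 4 and 134 without DKO replicate 3. With the replicate number as a block it was 28. By place, all 5 genes of chromosome 12 were called in the same direction, while on chromosome 7 it was 3 of 13 with 6 in the opposite one, on chromosome 8 it was 10 of 23 with 1 opposite, and elsewhere 27 of 68 with 14 opposite.

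Several genes had about the same size in both sets. Slc38a1 differed by 1.45 in AKT1 KO minus control and by 1.35 in DKO minus AKT2 KO (limma adjusted p = 5.56e-06 in the second set), Tfpi by 0.73 and 0.76 (0.000108) and A1cf by -2.29 and -2.37 (0.000107). Kcnj14 differed by -1.59 and -1.87 (7.04e-05), Plekhh1 by -2.65 and -2.09 (0.00031), Zfp386 by -1.11 and -1.31 (1.21e-06), Gm10336 by -1.22 and -1.11 (0.000208) and Clcn3, a chloride/proton exchanger of endosomes, by -0.40 and -0.34 (0.00137). The Clcn3 call in AKT1 KO hearts ended when control replicate 4 was left out (0.0521) and without the filter on dim probes (0.0512, and 0.000434 to 1 across its alternatives). Pdlim3 differed by 1.51 and 1.30 (0.00414), and Nppa by 1.47 and 2.20 (2.18e-05), where the test of the difference between the sets did not pass (limma adjusted p = 0.179). Other genes kept their direction at another size. Ptprn2 differed by 7.27 and 5.44 (6.74e-08), Adig by -1.39 and -2.55 (2.28e-07) and Cib3 by -1.66 and -2.94 (5.09e-07). Hhatl differed by -0.75 and -2.74 (2.99e-09), and Ankrd1 by 0.72 and 1.96 (8.45e-08).

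Other genes did not keep their direction or their size. Mdga1 differed by 0.63 in AKT1 KO minus control and by -1.70 in DKO minus AKT2 KO (limma adjusted p = 2.47e-08), Ybx2 by 0.73 and -1.45 (2.02e-07), Thrsp by 1.26 and -1.12 (0.000445) and Tbx1 by 0.74 and -0.54 (0.00331). Rhd differed by -1.61 and 0.80 (0.0181), Anxa4 by -0.67 and 0.59 (0.000176), Igf2r by -0.46 and 0.30 (0.0076) and Egr1 by -1.20 and 0.79 (0.0233). Eprn (2.02 and -0.09), Samd11 (0.80 and -0.11), Mybphl (3.60 and -0.18), Gsta2 (-2.61 and 0.35) and Gm10639 (-2.43 and 0.37) were called in AKT1 KO hearts and not in the second set. Mybphl averaged -5.56 in AKT2 KO and -5.74 in DKO hearts, close to its mean of -5.92 in control hearts, where no array was well above background. Its -0.18 thus sets dim values against each other and cannot show a lack of change. A test of the difference between both contrasts passed for 74 of the 109 genes, against 26.0% of all genes (15.9% higher, 10.1% lower). That test uses the same AKT1 KO and control arrays that chose the genes and is no independent count. The median of the fatty acid list was -0.211 in AKT1 KO minus control and -0.814 in DKO minus AKT2 KO, that of immediate early genes -0.278 and 0.794, and that of cytosolic ribosomal proteins -0.110 and 0.617.

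**Figure D5:**
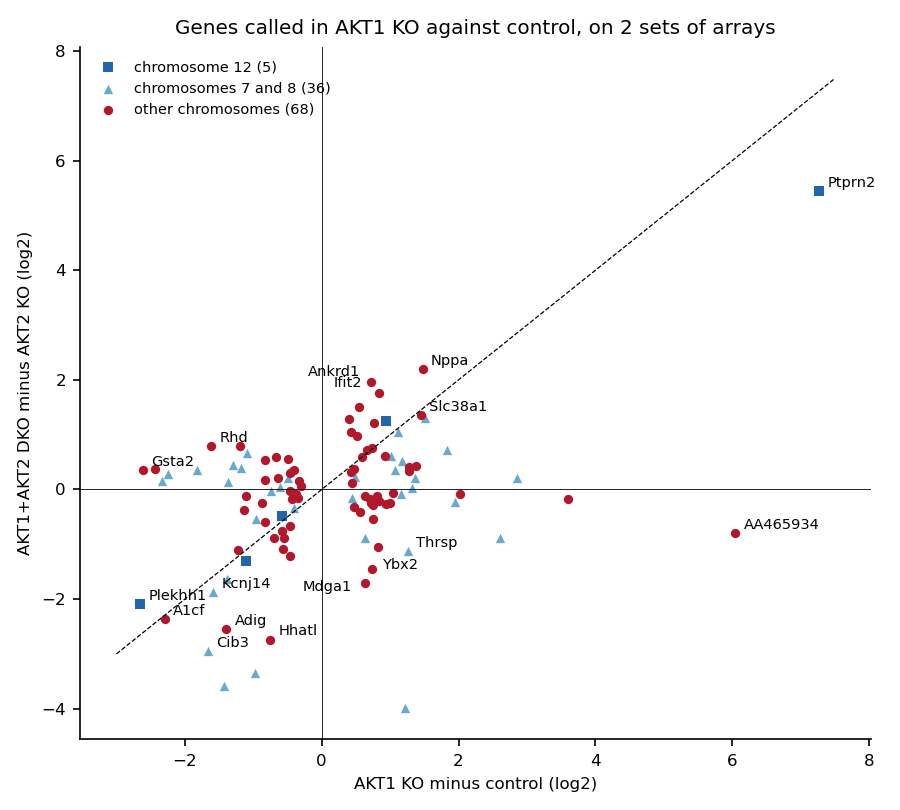
Difference on 2 sets of arrays for the 109 genes called in AKT1 KO against control hearts, with AKT1 KO minus control on the horizontal and AKT1+AKT2 DKO minus AKT2 KO on the vertical axis (log2). Squares are the 5 genes of chromosome 12, triangles those of chromosomes 7 and 8, and circles those of other chromosomes, and the dashed line marks equal differences. Slc38a1 and A1cf lie close to that line, and AA465934, Gsta2 and Mdga1 lie far from it.

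Probes without a gene symbol gave little beyond this. Fitted probe by probe, limma called 131 of the 26396 kept probes (0.496%). Of these, 28 were among the 7056 probes without a symbol (0.397% of them), 15 higher and 13 lower, and they are left unnamed.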

How the data were processed

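RNA from 16 hearts was measured on Agilent 1-colour (Cy3) arrays from 100 ng of total RNA. The deposited intensities were read, background-subtracted and detrended within each array by Agilent Feature Extraction 12.0.3.1, per the file headers. The authors also deposited a log2 table, whose values matched quantile-normalized log2 processed signals centred per probe on the median of the 16 samples (r 0.99997 or more on each array). The normalization method is not given in the sources used here, so that table served as an alternative. Flags for background, saturation and outliers came from the same scanner files.

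From these files, log2 of the processed signal minus the 75th percentile of the array over non-control spots was computed, and 118 probes with outlier flags were dropped. Spots of 1 probe were averaged. Of 56605 probes, 58.3% received a symbol when their transcript identifiers were matched to RefSeq genes, and 19340 of the 26396 kept probes did. Lengths, strands and positions of probes were not used. All 16 arrays entered 1 limma fit (limma 3.58.1, R 4.3.3) with 12 residual degrees of freedom, and p-values were adjusted by Benjamini-Hochberg within a contrast at 0.05. The fit was tested on simulated data. Levels of single genes were not set against each other, since probes differ in brightness. Labels give hearts as separate samples. The alternatives covered background correction, scaling, filters, probes, array weights, prior, blocks and leaving out each array. The members and gene lists were chosen with earlier results of these data known. Text names Akt1 and Akt2, the largest steady changes off and on chromosomes 7, 8 and 12, the called bright genes of smallest p, called genes by probe agreement, called members of lists or, with none, the 2 of smallest p, and called genes detected in 1 group. Names that are only a clone or model number are passed over, and some genes that the rule covers are not reported here.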

Additional observations from a re-analysis of the deposited data

Results flagged for a closer look

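Single arrays that lay far from the other 3 arrays of their group were found in 21 of 246 groups of values, by Dixon's test at its 95% critical value for 4 arrays. Chance flags about 1 in 20 groups. AKT1 KO replicate 1 was the array concerned in 12 of the 21. It was the lowest for Akt2 (4.51), Hhatl (2.54), Ptprn2 (1.55), Gsk3a (3.72), Ndufa8 (4.72), Acadvl (7.27), Rpl32 (6.26), Eef1b2 (5.34), Gsta4 (0.89), Ctsl (4.25) and Smoc2 (3.86), and the highest for Ppfibp1 (2.79). In AKT1 KO hearts replicate 3 was highest for Erg (-0.18) and replicate 4 for Tbx18 (-0.22). In control hearts replicate 1 was lowest for Ppfibp1 (0.79), replicate 3 for Mtr (1.64), Gsk3a (4.07) and Eef1b2 (5.75), and replicate 4 for Trmt9b (-1.94) and AA465934 (-2.99), while replicate 4 was highest for Bcl2 (0.37).

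For 41 named genes the difference between hearts with and without targeted Akt1 was not the same where Akt2 was targeted too, by limma's test of the interaction (adjusted p of 0.049 or less). The values that follow are the log2 difference of AKT1+AKT2 DKO minus AKT2 KO hearts less that of AKT1 KO minus control hearts. This test includes the AKT1 KO and control arrays on which the genes were chosen and is no independent check. In 12 of the 41 the second contrast was called in the opposite direction, for Tbx1 (-1.28), Ybx2 (-2.19), Mdga1 (-2.33), Rhd (2.41), Anxa4 (1.26), Thrsp (-2.38), Aldh16a1 (1.74), Igf2r (0.77), Egr1 (1.99), AA465934 (-6.83), 1700028J19Rik (-3.48) and Myom3 (-0.98). In 8 it was called in the same direction with another size, for Hhatl (-1.99), Ptprn2 (-1.83), Cib3 (-1.28), Adig (-1.16), Ocel1 (-1.11), Ppfibp1 (-0.95), Ifit2 (0.91) and Ankrd1 (1.25). In the other 21 it was not called, for Mybphl (-3.78), Eprn (-2.11), Slitrk4 (-0.87), Fgfr1op2 (-1.25), St6galnac2 (-1.05), Samd11 (-0.92), Gsta2 (2.96), Mtr (0.76), Ttc12 (1.01), Sbk3 (2.16), Nlrp10 (1.57), Zfp963 (-2.17), Cnot7 (-1.15), Tti2 (1.502), Pcm1 (0.72), Gins4 (0.71), Insyn2a (-2.64), Gm10639 (2.80), Htr7 (0.98), Pomp (0.48) and Ints13 (-0.75). For Mybphl both groups of the second contrast were about as dim as the control hearts, where it was not detected. The genes outside the naming rule among the 41, AA465934, 1700028J19Rik, Gm10639, Htr7, Myom3, Pomp and Ints13, were chosen after their values were seen.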

How the results depend on the processing

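The 109 calls became 56 without the filter on dim probes, 822 with array weights, 182 with the 8 compared arrays alone, 14 within slide 1, 4 within slide 2 and 59 without the second row of slide 2, where the last 3 settings were chosen after seeing the data. Leaving out 1 array gave 54 to 291 calls. Normexp, quantile normalization, median scaling, the authors' values, a stricter filter, the mean of the probes, another prior and slide, or slide and row, as a block gave 95 to 122 calls. No pairing of the samples by replicate number is stated. Deviations of same-numbered AKT1 KO and control arrays correlated at -0.217, 0.380, -0.033 and 0.131. These correlations cannot decide whether samples were paired, and the pair at 0.380 also shares slide and row. Arrays that share slide and row correlated at 0.192, 0.380, 0.149 and 0.130, and a block for slide and row kept 86 of the 109 calls. With the replicate number as a block 79 genes were called, and Akt1 kept its difference of 0.096. The 45 genes called in the same direction in both sets became 18 without the filter, 303 with array weights, 28 with the replicate block, 9 within slide 1, 2 within slide 2, 21 without the second row of slide 2 and 21 to 134 with 1 array left out. The Akt1 difference was 0.214 with array weights, which passed the threshold, -0.0020 within slide 2, and 0.028 to 0.218 with 1 array left out. Of 56 named called genes, 14 lost their call without the filter, 10 with the mean of the probes, 10 with the replicate block and 1 with normexp. Beside that of Akt1 within slide 2, the direction turned only in 3 named genes that were not called. It turned to 0.060 for Csnk1d with the mean of the probes, 0.044 for Higd1b within slide 1 and -0.0056 for Plac8 within slide 2. The median of 1 list moved by more than its spread over arrays under the stricter filter, and 3 did so within either slide. Without AKT1 KO replicate 3 the medians of 2 lists moved as far, and without control replicate 1 or control replicate 3 that of 1 list. With 2 arrays per group within a slide, the counts within slides are low by construction, and the cause of the other shifts was not tested. Arrays limit dim genes most, with a median standard error of 0.216 in the dimmest class and 0.102 in the brightest.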
